A study of Saccharomyces cerevisiae with 4 samples.

Results

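The genes of glycogen synthesis and breakdown in Saccharomyces cerevisiae were followed in cells exposed to acetic acid. The set held 10 genes named by their systematic ORF: GSY1 (YFR015C), GSY2 (YLR258W), GLG1 (YKR058W), GLG2 (YJL137C), GLC3 (YEL011W), GPH1 (YPR160W), GDB1 (YPR184W), GAC1 (YOR178C), PIG1 (YLR273C) and PIG2 (YIL045W). Of these, 9 had a row among the 5799 genes of the table, and GPH1 was not analysed here. Values were present on all 4 arrays for GSY1, GSY2, GLC3, PIG1 and PIG2, on 3 arrays for GLG1, GLG2 and GAC1, and on 2 arrays for GDB1. The 8 members measured on 3 or 4 arrays were tested, together with all other genes that met this minimum (5291 in all).

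Glycogen is a branched glucose polymer that yeast lays down as a carbon store, typically as nutrients run low or under stress. The glycogenins Glg1 and Glg2 glucosylate themselves and so provide the primer, which the glycogen synthases Gsy1 and Gsy2 extend with glucose from UDP-glucose, and the branching enzyme Glc3 adds the side chains. The phosphorylase Gph1 and the debranching enzyme Gdb1 take the polymer apart. Glycogen synthase is switched off by phosphorylation and on by the protein phosphatase Glc7, which the subunits Gac1, Pig1 and Pig2 bring to it. The arrays measure transcripts and carry no information on this phosphorylation.

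All cultures were of the haploid laboratory strain BY4741 (MATa), with the alleles his3Δ1, leu2Δ0 and met15Δ0 and an intact LYS2. The labels write the URA3 allele as ura3Δ0, ura3Δ1, ura3Δ2 or ura3Δ3 depending on the array. This running number may come from how the labels were filled in, and it is not read here as a difference of genotype. The cultures grew at 28 °C in YPD, a rich glucose medium, to an absorbance of 0.6. Portions of 50 ml received 30 mM acetic acid for 2 h, against no treatment in the control. Each two-colour array carried RNA of a treated and an untreated culture. On 2 arrays Cy5 labelled the treated RNA and on 2 arrays Cy3 did. An array is named here by the dye that the treated RNA carried and by its replicate number in the labels. The ratios are for cultures as a whole, so that fewer cells with a transcript and less of it per cell cannot be told apart, and they give no absolute level.

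Values are log2 ratios of acid-treated over untreated. Neither the base nor the direction is stated. Base 2 is the usual base for such arrays. The direction is likely because 10 of 10 tested genes known to be activated by Haa1, a transcription factor of the weak-acid response, lay above 0 (median 3.94). Of all 5291 genes tested, 2471 lay above 0. Were the ratios untreated over treated, all signs given here would be reversed. Arrays of opposite dye orientation correlated above 0 across genes, so they had already been turned the same way. The array with acid in Cy3 replicate 1 stood apart: its correlations with the other 3 arrays were 0.41 to 0.62, against 0.67 to 0.80 among those, and its ratios had an SD of 1.05, against 0.70 to 0.81.

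In this comparison GLC3 rose, and no other glycogen gene passed an adjusted p of 0.05 in either direction. The tested members spanned mean log2 ratios from -0.37 (PIG1) to 0.75 (GLC3), 4 of them above 0 and 4 below, with a median of 0.03 against -0.04 for all genes tested. The 1 higher gene among 8 is 12.5%, beside 8.85% of all genes tested that were called higher. The 0 lower genes stand beside 2.02% called lower, all by limma. An unadjusted limma p under 0.05 was reached by 3 of the 8 (GLC3, GSY2 and PIG2), beside 29.8% of all genes tested. These shares are near the background and say nothing particular about glycogen genes as a set. The background itself depended on the arrays and their scaling: over all genes, 468 were higher and 107 lower, against 170 to 678 higher and 9 to 258 lower with 1 array left out, and 541 higher and 268 lower after quantile normalization.

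GLC3 had log2 ratios of 0.53 and 0.95 on replicates 1 and 2 with acid in Cy5, and of 0.91 and 0.61 on those with acid in Cy3, the order kept below. All values lay above 0, and those of the orientations overlapped. On each array GLC3 was higher than 84.8% to 90.6% of the genes measured there. The mean of 0.75 ± 0.21 (SD, n = 4) is a 1.68-fold rise with a 95% interval of 1.31 to 2.16 (limma adjusted p = 0.0276). The mean was 0.70 without acid in Cy3 replicate 1, with an adjusted p of 0.0280 in limma. The call was lost in the limma fit without acid in Cy5 replicate 1 (0.82, adjusted p = 0.0953). It was also lost without acid in Cy5 replicate 2 (0.68, limma adjusted p = 0.125) and without acid in Cy3 replicate 2 (0.80, limma adjusted p = 0.114), and with same-numbered arrays averaged (0.75, limma adjusted p = 0.0912).

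**Figure D1:**
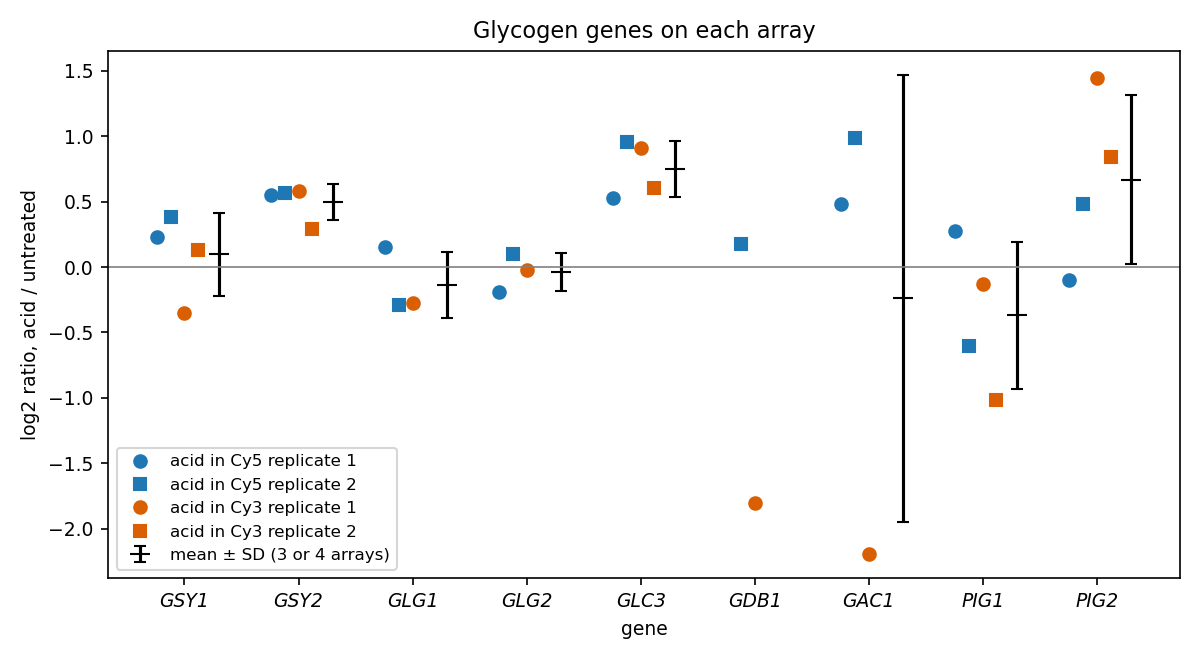
Log2 ratio of acid-treated over untreated cultures (vertical axis) for each glycogen gene with values (horizontal axis). Points are single arrays, coloured by the dye of the treated RNA, and black bars give the mean ± SD for genes with 3 or 4 arrays. GLC3 and GSY2 lie above 0 on 4 arrays, while GAC1 ranges from -2.19 to 0.99.

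The glycogen synthase genes had different ratios on every array. GSY2, which codes for the main isoform, had log2 ratios of 0.55 and 0.56 with acid in Cy5 and of 0.58 and 0.29 with acid in Cy3. Its values were tight and above 0 on all 4 arrays, and 91.6% of genes tested had a larger SD. The mean was 0.50 ± 0.14 (SD, n = 4), a 1.41-fold ratio with a 95% interval of 1.12 to 1.78, and did not pass (limma adjusted p = 0.0713). GSY1, the minor isoform, had 0.23 and 0.38 with acid in Cy5 and -0.35 and 0.13 with acid in Cy3, with acid in Cy3 replicate 1 as the single value below 0. Its mean of 0.10 ± 0.31 (SD, n = 4) did not pass (limma adjusted p = 0.721), and its 95% interval of 0.81 to 1.42-fold leaves out a doubling.

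GSY2 exceeded GSY1 by 0.32 and 0.18 on the arrays with acid in Cy5 and by 0.93 and 0.17 on those with acid in Cy3. The mean difference in log2 ratio was 0.40 ± 0.36 (SD, n = 4), higher in 4 of 4 arrays. The exact two-sided sign-flip permutation test gave p = 0.125 (0.25 adjusted over the 2 paralogue pairs with values on 4 arrays), the smallest p that 4 arrays allow. Without acid in Cy3 replicate 1 the mean difference was 0.22. How far the spots of these similar genes take up each other's RNA is not known.

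Neither glycogenin gene differed from 0 by more than its spread. GLG1 had log2 ratios of 0.16 and -0.29 with acid in Cy5 and -0.27 on acid in Cy3 replicate 1. GLG2 had -0.19, 0.10 and -0.02 on the same arrays. The means were -0.14 ± 0.25 and -0.04 ± 0.15 (SD, n = 3), with limma adjusted p of 0.650 and 0.900. The 95% intervals, 0.66 to 1.26-fold for GLG1 and 0.72 to 1.31-fold for GLG2, leave out a change of 2-fold either way. GLG2 minus GLG1 was -0.35, 0.39 and 0.25 on these arrays, with a mean of 0.10 ± 0.39 (SD, n = 3; exact two-sided sign-flip permutation p = 0.75, where 0.25 is the smallest possible).

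For breakdown, GDB1, the debranching enzyme, was the single gene with values. Its log2 ratio was 0.18 on acid in Cy5 replicate 2 and -1.80 on acid in Cy3 replicate 1. The values differ in sign, and with 2 values the gene was not tested in the main fit. It entered the fit with a minimum of 2 values and was not called there. The lower value comes from the array that stood apart, where 7.31% of genes were lower still; the part of that array in the difference was not tested.

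The genes of the Glc7-targeting subunits varied more between arrays than most genes: those of GAC1, PIG1 and PIG2 had SDs above 99.2%, 78.0% and 83.8% of genes tested. GAC1, named for its effect on glycogen accumulation, had log2 ratios of 0.48 and 0.99 with acid in Cy5 and -2.19 on acid in Cy3 replicate 1. It was higher than 83.1% and 91.2% of genes on the Cy5 arrays and than 4.62% on the other. The mean was -0.24 ± 1.71 (SD, n = 3) and did not pass (limma adjusted p = 0.818). Without acid in Cy3 replicate 1 the mean was 0.74 and did not pass either (limma adjusted p = 0.0693). The 95% interval over the 3 arrays, 0.28 to 2.53-fold, covers a 2-fold change either way.

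PIG1, a homologue of GAC1, had log2 ratios of 0.27 and -0.60 with acid in Cy5 and -0.13 and -1.02 with acid in Cy3. It lay below 0 on 3 of 4 arrays, and on acid in Cy3 replicate 2 only 3.32% of genes were lower. The mean of -0.37 ± 0.56 (SD, n = 4) did not pass (limma adjusted p = 0.319). PIG1 minus GAC1 ranged from -1.59 to 2.06 over 3 arrays, with no common sign (exact two-sided sign-flip permutation p = 1).

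PIG2 had log2 ratios of -0.10 and 0.48 with acid in Cy5 and of 1.44 and 0.84 with acid in Cy3. The orientations did not overlap, and the gene moved from above 40.3% of genes on acid in Cy5 replicate 1 to above 96.9% on acid in Cy3 replicate 1. The mean was 0.67 ± 0.65 (SD, n = 4), a 1.59-fold ratio with a 95% interval of 1.03 to 2.44, and did not pass (limma adjusted p = 0.146). Without acid in Cy3 replicate 1 it was 0.41. The difference between orientations, Cy5 minus Cy3, was -0.95 and did not pass in a limma fit with a dye term (adjusted p = 0.665), in which 0.227% of genes passed. GIP2 (YER054C), the paralogue of PIG2 and also a Glc7-binding protein, had 0.56, 0.76, 0.27 and 0.65 in the same order of arrays. All lay above 0, with a mean of 0.56 ± 0.21 (SD, n = 4; limma adjusted p = 0.0650). It passed without acid in Cy3 replicate 1 (0.66, limma adjusted p = 0.0249). GIP2 minus PIG2 averaged -0.11 ± 0.79 (SD, n = 4; exact two-sided sign-flip permutation p = 0.875, 0.875 adjusted over the 2 pairs).

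Ordered by mean log2 ratio the members ran GLC3, PIG2, GSY2, GSY1, GLG2, GLG1, GAC1, PIG1 and, from 2 arrays, GDB1. Between neighbours in this order, the difference exceeded its own SD over shared arrays for GSY2 against GSY1 alone; each of the other 7 steps was smaller than that spread. GLC3 against PIG2, for instance, differed by 0.08 ± 0.56 (SD, n = 4). For GAC1 against PIG1 the order was reversed on the shared arrays, with a difference of -0.09 ± 1.85 (SD, n = 3).

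**Figure D2:**
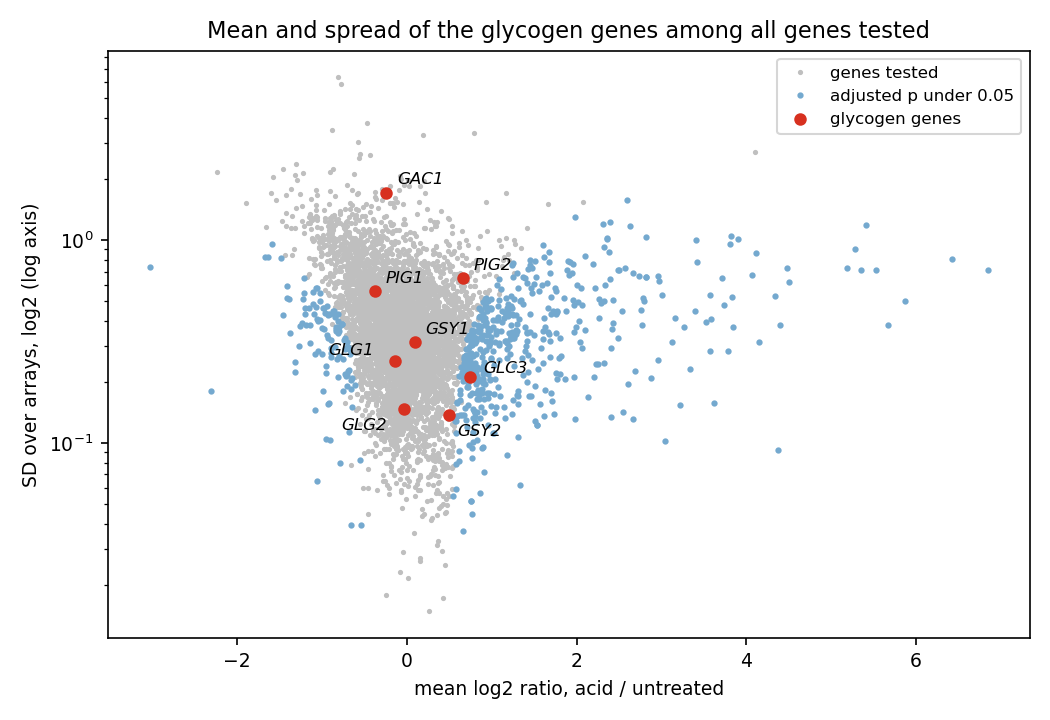
Mean log2 ratio (horizontal axis) and SD over arrays (vertical log axis) of the 5291 genes tested, with genes at an adjusted p under 0.05 in blue and the 8 tested glycogen genes in red. GSY2, at 0.50, has a smaller SD than GLC3, at 0.75, and lies just outside the called genes, while GAC1 lies near the top of the spread with an SD of 1.71.

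The genes whose ratios over 4 arrays were nearest to those of GLC3, by root mean square difference among 4895 other genes with complete values, were APA2 (0.06), APD1 (0.08) and URA1 (0.08). APA2 codes for a diadenosine tetraphosphate phosphorylase and URA1 for dihydroorotate dehydrogenase of pyrimidine synthesis. Their mean log2 ratios were 0.69 ± 0.24, 0.78 ± 0.13 and 0.77 ± 0.31 (SD, n = 4).

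Among regulators of glycogen synthase, PCL10 had the highest ratio. Pcl10 is a cyclin that directs the kinase Pho85 to phosphorylate and inactivate Gsy2. Its log2 ratios were 2.48 and 2.67 with acid in Cy5 and 2.44 and 2.86 with acid in Cy3. These values lay close together on all arrays, the one that stood apart included. PCL10 rose by 2.61 ± 0.19 (SD, n = 4), or 6.11-fold with a 95% interval of 4.79 to 7.81 (limma adjusted p = 0.000211), the 58th highest of 5291 genes. It passed in each of the 13 alternative fits.

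The other tested genes of kinase and phosphatase control did not pass. SNF1, with 2 values, was not tested in the main fit and was not called where 2 values sufficed. PCL8, the other cyclin with this role, had ratios of -0.02, 0.02, 0.77 and 0.37 (mean 0.29 ± 0.37, SD, n = 4; limma adjusted p = 0.324). PHO85 itself was at -0.23 ± 0.06 (SD, n = 4; limma adjusted p = 0.273), with a 95% interval of the log2 ratio from -0.55 to 0.08. GLC7, the phosphatase, was at -0.09 ± 0.44 (SD, n = 4; limma adjusted p = 0.784). PSK2, one of the PAS kinases that act on glycogen synthase and Ugp1, had log2 ratios of -0.65, -0.45, -1.62 and -0.23, all below 0, with acid in Cy3 replicate 1 the lowest. Its mean of -0.73 ± 0.61 (SD, n = 4) did not pass (limma adjusted p = 0.113; -0.44 without that array). Of the 12 genes tested in this list 1 rose and 0 fell. The share that rose, 8.33%, stands beside 8.85% over all genes. By limma, 3 had an unadjusted p under 0.05 (PCL10, GIP2 and PSK2), or 25.0% beside 29.8% over all genes. The median was -0.04, equal after rounding to that of all genes tested.

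Of these neighbouring lists, the supply of glucose phosphates and UDP-glucose had the most calls. Of 7 genes, 5 rose and 0 fell, beside 8.85% of all genes called higher and 2.02% called lower, and the median was 0.90. HXK1, a hexokinase, had log2 ratios of 1.26 and 2.09 with acid in Cy5 and 1.41 and 2.81 with acid in Cy3, and rose by 1.89 ± 0.71 (SD, n = 4; limma adjusted p = 0.0100). GLK1, the glucokinase, rose by 1.05 ± 0.36, its close relative EMI2 by 1.02 ± 0.40, and HXK2, the main hexokinase on glucose, by 0.90 ± 0.41 (SD, n = 4; limma adjusted p = 0.0168, 0.0220 and 0.0341). These genes lay above 0 on every array. With same-numbered arrays averaged, 4 of the 5 calls in this list were lost (limma adjusted p from 0.0580 for GLK1 to 0.0925 for HXK2) and HXK1 was still called. Without acid in Cy5 replicate 2 all 5 were lost. Calls over all genes fell as well, from 10.9% to 6.17% with averaging and to 3.92% without acid in Cy5 replicate 2. How far the spots of the similar genes HXK1 and HXK2, and of GLK1 and EMI2, take up each other's RNA is not known. The ratio of each may be affected.

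PGM2, the main phosphoglucomutase, which links glucose 6-phosphate to glucose 1-phosphate, had 0.34, 1.23, 1.16 and 0.86, and rose by 0.90 ± 0.40 (SD, n = 4; limma adjusted p = 0.0341). UGP1, which makes the UDP-glucose used by glycogen synthase, had 0.85 and 1.39 with acid in Cy5 and -0.73 and 0.97 with acid in Cy3. Acid in Cy3 replicate 1 was again the single low value, and the mean of 0.62 ± 0.93 (SD, n = 4) did not pass (limma adjusted p = 0.267). Without that array the mean was 1.07 and passed (limma adjusted p = 0.00834). PGM1, the minor phosphoglucomutase, did not pass either (0.34 ± 0.51, SD, n = 3; limma adjusted p = 0.383).

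Trehalose draws on the same UDP-glucose. In its list of 7 genes 5 were tested, of which 1 rose and 0 fell, with a median of 0.39. That is 20.0% of 5 genes, beside 8.85% called higher over all genes. TPS1, trehalose 6-phosphate synthase, had log2 ratios of 0.66, 1.51, 1.25 and 1.61, above 0 on all arrays, and rose by 1.26 ± 0.43 (SD, n = 4; limma adjusted p = 0.0124). SGA1, a glucoamylase of sporulating cells that also degrades glycogen, had a mean of 0.09 ± 0.38 over 3 arrays and did not pass (limma adjusted p = 0.805). Across these neighbouring lists 7 of 25 tested genes passed, all higher, or 28.0%. Beside this stand 8.85% of all genes called higher and 10.9% in either direction. The lists were chosen with earlier results of these data known, so the difference in shares cannot serve as a test. The number of neighbouring genes that passed was 5 without acid in Cy5 replicate 1, 1 (PCL10) without acid in Cy5 replicate 2 and 2 (PCL10 and HXK1) without acid in Cy3 replicate 2. It was 9, with GIP2 and UGP1 added, when acid in Cy3 replicate 1 was left out. The shares of all genes called in these 4 fits were 4.44%, 3.92%, 3.22% and 17.2%, in the order given, beside 20.0%, 4%, 7.69% and 34.6% of the tested neighbouring genes.

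**Figure D3:**
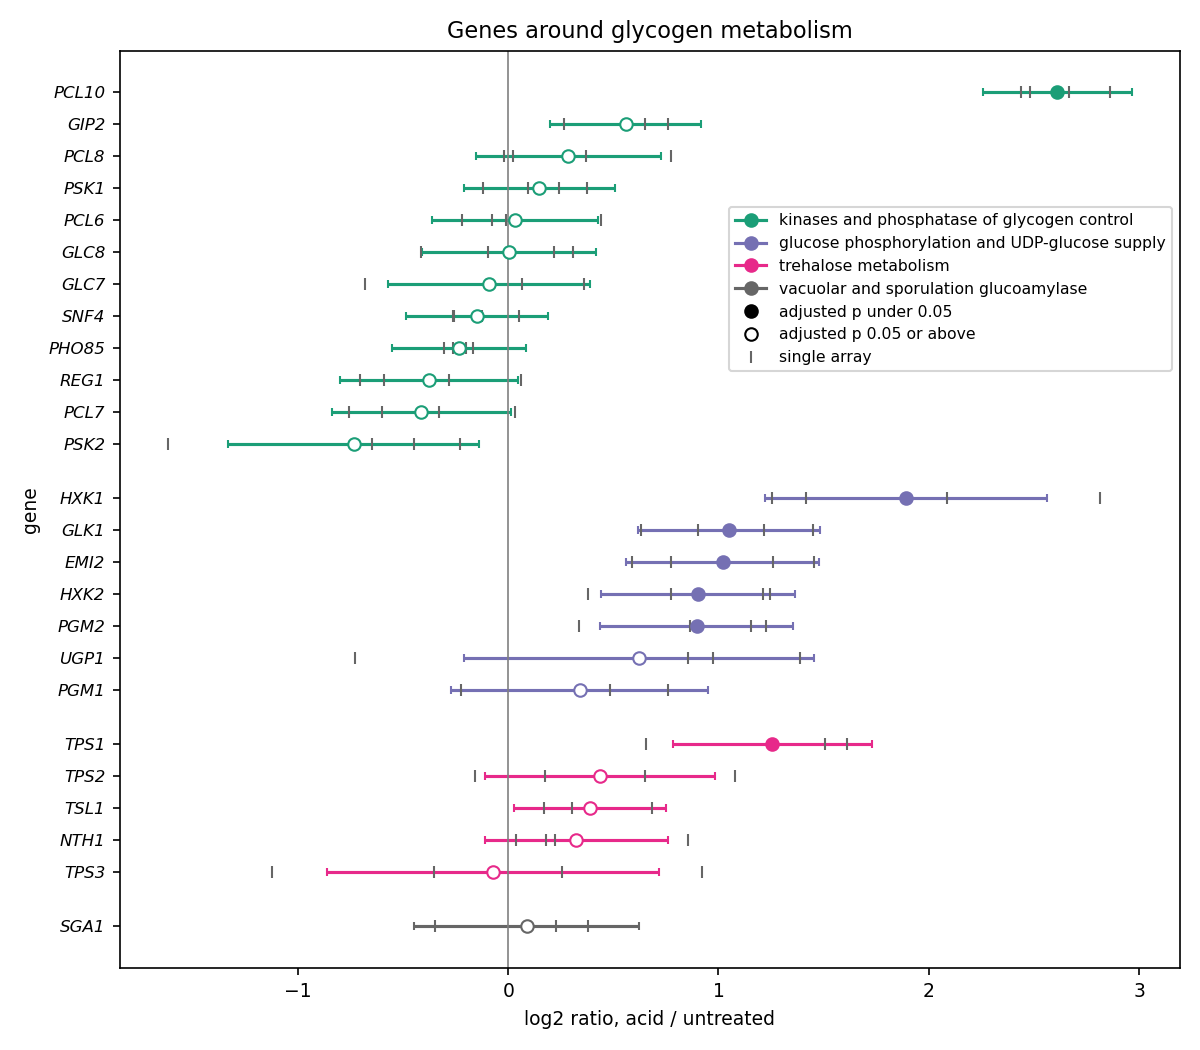
Log2 ratio of acid-treated over untreated cultures (horizontal axis) for genes around glycogen metabolism (vertical axis), by list. Circles are means with 95% intervals from limma, filled at an adjusted p under 0.05, and ticks are single arrays. PCL10 stands at 2.61, and 5 genes of glucose phosphate supply are filled.

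Leaving out arrays changed the glycogen genes unequally. The mean of GSY2 stayed between 0.47 and 0.57 and that of GLC3 between 0.68 and 0.82, whichever array was dropped. PIG2 ranged from 0.41 to 0.92 and GAC1 from -0.85 to 0.74. GSY1 ranged from 0.0023 (without acid in Cy5 replicate 2) to 0.25 (without acid in Cy3 replicate 1). GLG1 ranged from -0.28 (without acid in Cy5 replicate 1) to -0.06 (without acid in Cy5 replicate 2), and PIG1 from -0.58 (without acid in Cy5 replicate 1) to -0.15 (without acid in Cy3 replicate 2). None of these 5 genes passed in a fit with 1 array left out.

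**Figure D4:**
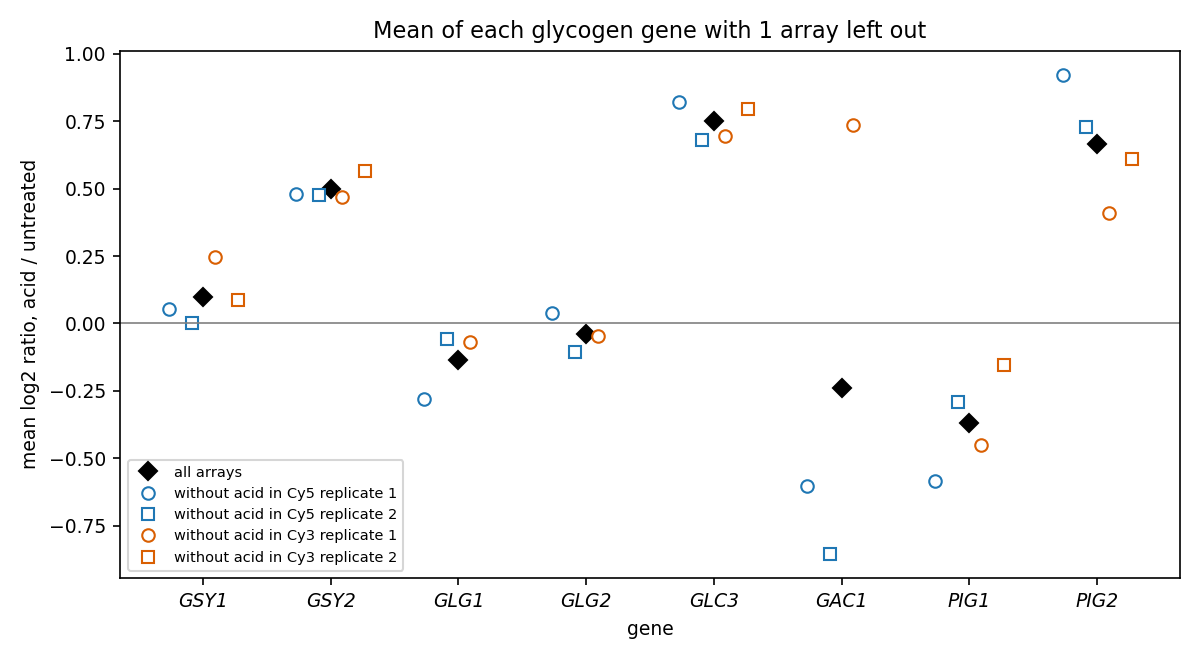
Mean log2 ratio of acid-treated over untreated cultures (vertical axis) for the 8 tested glycogen genes (horizontal axis), over all arrays (diamonds) and with 1 array left out (open symbols, named by the array left out; none is drawn where that array had no value). GAC1 is the gene with the widest range, from -0.85 to 0.74, and GSY2 stays within 0.47 to 0.57.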

How the data were processed

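The deposited table holds a signed value for each gene on each array, with medians near 0, read here as the log2 ratio of the channels. Per the labels' protocols, total RNA came from an acid-phenol extraction and was labelled indirectly. How the authors scanned, background-corrected, normalized and filtered is not given in the sources used here, and signal over background is unknown. Ratios were fitted with an intercept on the whole table in limma 3.58.1 under R 4.3.3. Tests were two-sided, with a threshold of 0.05. Limma's p-values were adjusted by Benjamini-Hochberg over the genes of each fit, 5291 in the main fit and 4896 to 5592 in the alternatives. The minimum was 3 values per gene (2 where an array was left out). Averaging needed a value for each replicate number, from either array or both. The fit was tested on simulated data. The arrays are biological replicates per the series' design text; if same-numbered arrays share RNA, n is 2. Deviations from the orientation means correlated at 0.252 between arrays of the same number; 2 pairs are too few to take the numbers as pairing. The members, the lists of neighbouring genes and the tests were chosen with earlier results of these data known. Named were all members, list genes past the threshold (or the 2 smallest p), GIP2 and the 3 genes nearest to the member with the smallest p; PCL8, PHO85, GLC7, PSK2, UGP1 and PGM1 were added after their values were seen. All 50 list genes matched a symbol of the R64 gene table by ORF; no coordinates of it are printed. Alternatives were a dye term, a replicate block, the mean of same-numbered arrays, centring, scaling, quantile normalization, minimums of 2 and 4 values, robust variance and leaving out each array.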

Additional observations from a re-analysis of the deposited data

Results flagged for a closer look

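GSY2 had 1 value away from the others: acid in Cy3 replicate 2, at 0.29, where the other 3 arrays lay between 0.55 and 0.58. The gap was 0.890 of the range, above Dixon's 95% critical value. Of 28 genes with 4 values examined this way GSY2 alone was so marked, and chance marks about 5% of groups.

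GAC1 and GDB1 had opposite signs in the dye orientations. The mean log2 ratio with acid in Cy5 minus that with acid in Cy3 was 2.93 for GAC1, which did not pass in limma's dye term (adjusted p = 0.151), and 1.98 for GDB1, where 1 array stood on each side and the difference was not tested. In both cases the value for Cy3 came from replicate 1, the array with the lowest correlations with the others; its part was not tested.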

How the results depend on the processing

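The 4 arrays limit every value, and signal over background is unknown. With centring, scaling, quantile normalization, a dye term, robust variance or minimums of 2 or 4 values, 1 glycogen gene (GLC3) was higher and 0 lower. With same-numbered arrays averaged, 0 were higher (GLC3 0.75, limma adjusted p = 0.0912) and 3 neighbouring genes were called. That fit called 5.25% of all genes higher and 6.17% in either direction, beside 11.5% of the tested neighbouring genes. Leaving out 1 array gave 0 to 1 higher glycogen genes and 1 to 9 neighbouring genes called. With the replicate number as a random block, 1 glycogen gene was higher and GIP2 passed (0.56, limma adjusted p = 0.0480), giving 8 neighbouring genes (32% of those tested). No other call among the glycogen and neighbouring genes changed. Over all genes 13.9% were called with the block, against 10.9% without it. The block's correlation was -0.109, and with same-numbered arrays averaged GIP2 did not pass (adjusted p = 0.170). With quantile normalization PSK2 passed as lower (-0.68, limma adjusted p = 0.0436), also giving 8 neighbouring genes, beside 15.3% of all genes called. Over all alternatives GLC3 had adjusted p from 0.0165 to 0.125, and GSY2 from 0.0519 to 0.233. GAC1 turned to 0.0678 with averaging, 0.0582 with scaling and 0.10 with quantile normalization, and ranged from -0.85 to 0.74 with arrays left out. GLG2 ranged from -0.11 to 0.0395 with arrays left out. SGA1 turned to -0.021 with the dye term and ranged from -0.059 to 0.30 with arrays left out. None of these 3 genes was called in any setting. The causes were not tested.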

Other observations

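Missing values were uneven over the arrays. Acid in Cy3 replicate 2 had no value for 4 of the 9 glycogen genes (GLG1, GLG2, GDB1 and GAC1), where 11.5% of all genes had none. Acid in Cy5 replicate 1 lacked 1 of them (GDB1).

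Some genes of the neighbouring lists had too few values to be tested in the main fit. SNF1, the kinase of glucose derepression, had log2 ratios of 0.68 and 0.46, both with acid in Cy5. The trehalase genes NTH2 and ATH1 had 1 value each, 0.08 on acid in Cy5 replicate 1 and -2.63 on acid in Cy3 replicate 1.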
